A study of Mus musculus with 3 samples.

Results

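The D cyclins, the retinoblastoma family and the CDK inhibitors were described in RNA-seq libraries of 3 mouse myoblast lines, numbered 66, 67 and 72. The 10 genes were taken by name (Ccnd1, Ccnd2, Ccnd3, Cdkn1a, Cdkn1b, Cdkn2a, Cdkn2b, Cdkn2c, Rb1 and Rbl1), out of 35562 genes. Together they held 55 annotated transcripts, of which 2 belonged to Cdkn2a, whose transcripts were taken one by one. All 3 lines carried the Dmdmdx mutation of dystrophin, corrected with CRISPR/Cas9, and the Pax7-nGFP reporter, a nuclear GFP under Pax7 control. Each line came from an intraspecies mouse chimera, grown from a host blastocyst injected with edited induced pluripotent stem cells. The study describes those stem cells as made from reprogrammed male embryonic fibroblasts, with the edit checked in one clone. For the RNA-seq, it describes the myoblasts as purified by cell sorting. It describes hosts with a tamoxifen-inducible Cre in Pax7 and a Cre-dependent diphtheria toxin gene, so that tamoxifen kills the satellite cells of the host. The labels give neither the animal's age, nor the chimera, nor the tamoxifen treatment of each line. The lines therefore formed 1 condition with n = 3, no comparison between conditions was made, and the spread given is that between lines.

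D cyclins bind the kinases CDK4 and CDK6 when growth factors are present, and the complex phosphorylates the pocket proteins RB1, RBL1 and RBL2. Pocket proteins hold E2F transcription factors in check until they are phosphorylated, after which genes of DNA synthesis are transcribed. INK4 inhibitors (Cdkn2a, Cdkn2b, Cdkn2c) bind CDK4 and CDK6 directly, whereas Cip/Kip inhibitors (Cdkn1a, Cdkn1b) bind complexes of cyclin and kinase. In muscle, proliferating myoblasts leave the cell cycle for good when they differentiate, and Cdkn1a, Rb1 and Ccnd3 are known for rising in that step. Cdkn2a is a locus of culture-induced senescence in mouse cells.

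Cdkn2a makes a pair of unrelated proteins from transcripts that share their second exon, and its sequences are shown because all 3 lines held both transcripts, and the level of one varied more between lines than that of the other. All positions are those of GENCODE release M21 on the GRCm38 genome, where Cdkn2a lies on the minus strand at chr4:89274471-89294653. Cdkn2a-201 encodes p16Ink4a, an inhibitor of CDK4 and CDK6. Cdkn2a-202 encodes p19Arf, which shields p53 by binding MDM2. The first exon of Cdkn2a-201 spans chr4:89281986-89282192 (207 bases), and that of Cdkn2a-202 spans chr4:89294334-89294653 (320 bases), 12.461 kb away from start to start. The first 30 coding bases, with the start codon in capitals, come from these separate exons at chr4:89282082-89282111 and chr4:89294494-89294523.
p16Ink4a start: ATGgagtccgctgcagacagactggccagg
p19Arf start: ATGggtcgcaggttcttggtcactgtgagg

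Both transcripts then run into the same exon at chr4:89276645-89276985 (341 bases). The coding sequence of p16Ink4a holds 126 bases in its first exon, so that exon 2 opens on a whole codon. That of p19Arf holds 190, so that exon 2 is read with an offset of 2 bases. The lines below give the first 30 bases of exon 2 (chr4:89276956-89276985, minus strand) in each frame, with alternate codons in capitals, followed by 30 bases across each junction with the first whole codon of exon 2 in capitals.
exon 2 read as p16Ink4a: GTGatgATGatgGGCaacGTTcacGTAgca
exon 2 read as p19Arf: gtGATgatGATgggCAAcgtTCAcgtAGCa
junction of p16Ink4a: cgtaccccgattcagGTGatgatgatgggc
junction of p19Arf: ggaatcctggaccaggtGATgatgatgggc

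Reads in the shared exons cannot tell these transcripts apart, so the split between them rested on particular sequence. Of the 31-base words of each transcript, 274 of 822 for p16Ink4a and 317 of 865 for p19Arf occurred in that transcript only. All 317 words of p19Arf overlapped its first exon, whereas 204 words of p16Ink4a overlapped the first exon and 70 lay beyond it. Those 70 lay at the far end of the transcript, annotated to chr4:89274471 for Cdkn2a-201 and only to chr4:89274541 for Cdkn2a-202. Reads there would count for p16Ink4a whichever first exon their RNA held.

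Levels are given in TPM, the estimated count of a transcript divided by its effective length and scaled to the same total in each library, and gene levels are sums over transcripts. The libraries held 73274315, 66972426 and 70272367 estimated counts in lines 66, 67 and 72, so 3 counts, the most that a count of 0 allows, corresponded to between 0.0409 and 0.0448 CPM (counts scaled to the library total). Such limits and the binomial intervals below cover counting error only. All 11 myoblast markers examined, among them Pax7 (144 ± 9.02 TPM, mean ± SD, n = 3) and Myod1 (690 ± 107 TPM), had means of at least 31.3 TPM. Means were below 1 TPM for 6 of 6 endothelial markers, 5 of 6 immune markers and 5 of 8 fibroblast markers. The fibroblast markers Lum and Dpt were at 0 in every line, but Col3a1 had 207 TPM, and the fibroblast list summed to 241, 311 and 441 TPM in lines 66, 67 and 72. In bulk RNA, a change in the number of cells of a type and a change in RNA per cell cannot be told apart.

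All 10 genes were detected in every line and all passed a mean of 10 TPM, a level reached by 8428 genes. Ccnd1 (466 TPM), Cdkn1a (438 TPM), Ccnd3 (309 TPM), Ccnd2 (258 TPM) and Cdkn2a (154 TPM) formed an upper tier, at or above the 96.0th percentile of the 25510 detected genes. Rb1 (45.1 TPM), Cdkn2b (25.7 TPM), Cdkn1b (18.7 TPM), Rbl1 (18.1 TPM) and Cdkn2c (14.8 TPM) formed a lower tier, between the 71.4th and the 86.0th percentile. Cdkn2a is summed here over its transcripts, of which p16Ink4a alone had 55.4 TPM in line 67. The lowest line of the Cdkn2a sum, at 125 TPM, stood above the highest line of Rb1, at 53.5 TPM. The tiers of gene sums thus did not overlap per length. By counts alone, which are not divided by length, they did, since the longer Rb1 had 8182 and 6987 estimated counts in lines 67 and 72 against 4538 and 5783 of Cdkn2a.

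**Figure D1:**
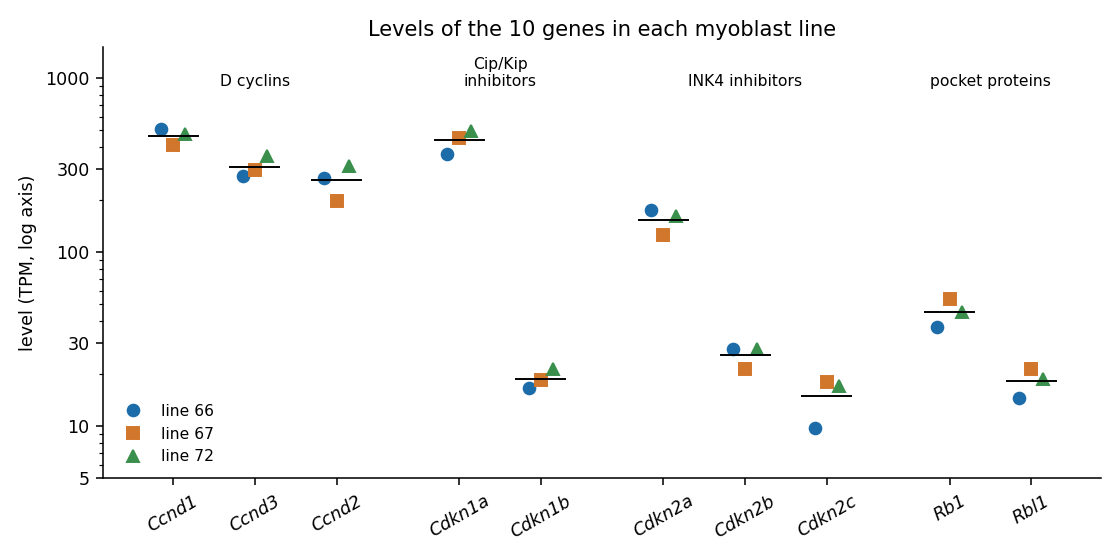
Levels in TPM (log axis) of the 10 genes in lines 66 (circles), 67 (squares) and 72 (triangles), grouped by role, with a horizontal bar at the mean of 3 lines. In each class of inhibitor 1 gene stands far above the others, Cdkn1a at 438 TPM and Cdkn2a at 154 TPM. The value of Cdkn2a sums its p16Ink4a and p19Arf transcripts.

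Among the D cyclins, Ccnd1, the best-known growth factor target of the family (chr7:144929931-144939925), had 510, 412 and 475 TPM in lines 66, 67 and 72 (466 ± 49.7, n = 3). Line 66 was highest and line 67 lowest, 1.24-fold apart (the fold between the highest and the lowest line is called the distance below). Ccnd2 (chr6:127125162-127152193) had 266, 196 and 312 TPM (258 ± 58.6). Line 72 stood 1.59-fold above line 67, a larger distance than in 93.0% of the 8428 genes. Ccnd3, the D cyclin of differentiating muscle (chr17:47505051-47599691), had 275, 297 and 356 TPM (309 ± 42.3), with line 72 1.30-fold above line 66.

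The D cyclins summed to 1051, 905 and 1144 TPM (1033 ± 121). Ccnd1 made up 48.5%, 45.5% and 41.6% of that sum, Ccnd2 25.3%, 21.6% and 27.3%, and Ccnd3 26.1%, 32.8% and 31.2%. Ccnd1 thus led in every line, and the ratio of Ccnd1 to Ccnd3 ran from 1.86 in line 66 to 1.39 and 1.33 in lines 67 and 72. In line 72, the genes of chromosome 6, which holds Ccnd2 and Cdkn1b, stood 0.16 (median log2 difference from the other lines, relative to all genes) above those of the other lines. The own log2 differences of Ccnd2 and Cdkn1b in line 72 were 0.37 and 0.23. What part the chromosome had in them was not tested.

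The transcripts of the D cyclins were uneven. Ccnd1-201 carried 96.3% of Ccnd1 on average and Ccnd2-201 carried 80.9% of Ccnd2. A short noncoding transcript, Ccnd2-207, had 28.5 TPM in line 66 but 6.95 and 6.48 TPM in lines 67 and 72, against 206, 159 and 263 TPM of Ccnd2-201. The 21 transcripts of Ccnd3 began at distal starts (13 transcripts, chr17:47505051-47505241) or at proximal ones (8 transcripts, chr17:47593436-47597164), a division made after the values had been seen. The proximal class had 271, 295 and 349 TPM, which was 98.6%, 99.3% and 97.9% of the gene. The distal class had 3.78, 1.99 and 7.50 TPM, highest in line 72. Of the 31-base words, 3983 of 5796 in the distal class and 3371 of 5184 in the proximal class did not occur in the other.

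Cdkn1a, which encodes p21, a p53 target that halts the cycle (chr17:29090976-29100727), had 364, 452 and 497 TPM (438 ± 67.4, n = 3). It was lowest in line 66 and highest in line 72, 1.36-fold apart. Cdkn1b, which encodes p27, an inhibitor controlled largely through its breakdown (chr6:134920401-134925513), had 16.5, 18.4 and 21.2 TPM (18.7 ± 2.41), in the same order of lines. The ratio of Cdkn1a to Cdkn1b was 22.1, 24.6 and 23.4 in the 3 lines, so the spacing of the pair varied less than either gene. Cdkn1a-201 carried 91.4% of Cdkn1a.

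Among the INK4 genes, Cdkn2a had 175, 125 and 160 TPM (154 ± 25.7, n = 3), with line 67 lowest and 1.40-fold below line 66. Cdkn2b, which encodes p15Ink4b and lies next to Cdkn2a (chr4:89306299-89311039), had 27.7, 21.4 and 27.9 TPM (25.7 ± 3.72). Line 67 was again the lowest, 1.30-fold below line 72, and the ratio of Cdkn2a to Cdkn2b was 6.32, 5.85 and 5.76. Cdkn2c, which encodes p18Ink4c and lies elsewhere on the same chromosome (chr4:109660876-109667189), had 9.80, 17.8 and 16.9 TPM (14.8 ± 4.39), the widest spread of the 10 genes. Line 66 was lowest there, 1.82-fold below line 67, and the ratio of Cdkn2a to Cdkn2c was 17.9, 7.02 and 9.48. Cdkn2c rested on 763, 1365 and 1267 estimated counts, whose counting error (3.62% at the lowest count) was far below the 29.6% coefficient of variation between lines. Both Cdkn2c transcripts were lowest in line 66, Cdkn2c-201 with 5.85, 9.49 and 9.54 TPM and Cdkn2c-202 with 3.95, 8.31 and 7.38 TPM.

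The p16Ink4a transcript had 104, 55.4 and 90.1 TPM in lines 66, 67 and 72 (83.1 ± 25.0, n = 3). The p19Arf transcript had 71.3, 69.7 and 70.4 TPM (70.5 ± 0.813). The difference between lines in Cdkn2a thus lay in p16Ink4a, 1.88-fold between its highest and lowest line, while p19Arf varied 1.02-fold, with a coefficient of variation of 1.15% in TPM. In CPM, not divided by length, p19Arf had 39.8, 39.1 and 37.9, a coefficient of variation of 2.58% against a counting error of 1.91% at its mean count, and p16Ink4a was 1.86-fold apart. Of the 11732 transcripts with a mean of at least 10 TPM, 93.6% had a smaller distance between lines than the p16Ink4a transcript and 1.41% a smaller one than the p19Arf transcript. Of all of them, 17.2% were over 1.5-fold apart. Line 67 was the line with more p19Arf than p16Ink4a, at a ratio of p16Ink4a to p19Arf of 0.794 against 1.46 and 1.28 in lines 66 and 72.

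As a share of the gene's TPM, p19Arf made up 40.7%, 55.7% and 43.9% (46.8 ± 7.92). By estimated counts the share was 2920 of 6831 in line 66 (42.7%, 95% exact binomial interval 41.6 to 43.9), 2621 of 4538 in line 67 (57.8%, 56.3 to 59.2) and 2661 of 5783 in line 72 (46.0%, 44.7 to 47.3). The interval of line 67 did not overlap the others, and those of lines 66 and 72 did not overlap each other. With 1 library per line, these intervals compare libraries and hold no error between cultures of a line, and they take the program's split of shared reads as given.

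**Figure D2:**
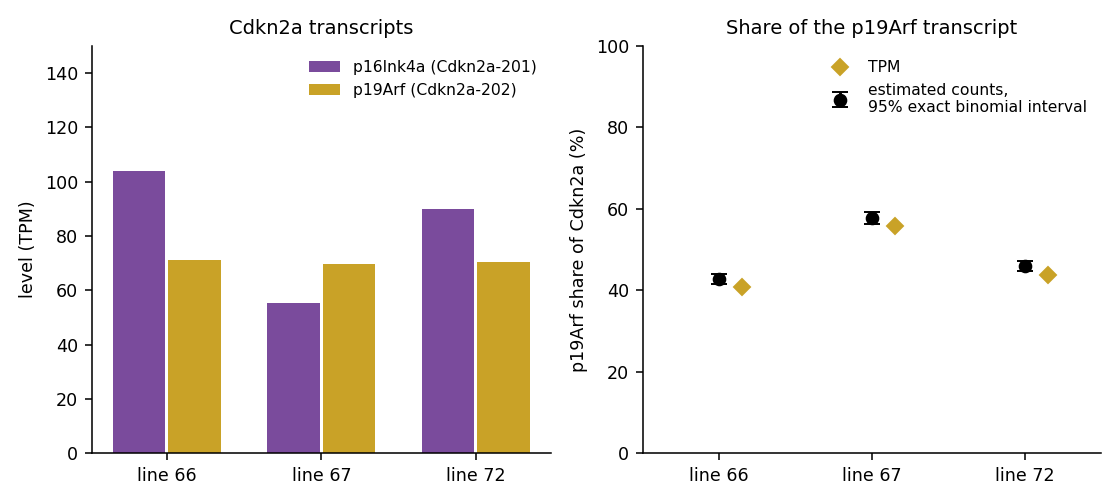
Left, level in TPM of the p16Ink4a and p19Arf transcripts of Cdkn2a in each line (bars, 1 library each). Right, the p19Arf share of Cdkn2a in percent by TPM (diamonds) and by estimated counts (circles with 95% exact binomial intervals), which is highest in line 67 at 55.7% of TPM.

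The promoters of the Cdkn2a transcripts are shown because one transcript varied more between lines than the other. RefSeq promoter windows (250 bases before to 50 after a start, GRCm38.p6) were held for 7 of the 10 genes, with 11 windows, and none for Ccnd1, Ccnd2 and Rb1. The windows below read 5′ to 3′ on the minus strand, with every CpG in capitals, and the choice of what to search in them was made after the levels had been seen. The window of p16Ink4a is chr4:89282143-89282442 and that of p19Arf is chr4:89294570-89294869.
p16Ink4a promoter: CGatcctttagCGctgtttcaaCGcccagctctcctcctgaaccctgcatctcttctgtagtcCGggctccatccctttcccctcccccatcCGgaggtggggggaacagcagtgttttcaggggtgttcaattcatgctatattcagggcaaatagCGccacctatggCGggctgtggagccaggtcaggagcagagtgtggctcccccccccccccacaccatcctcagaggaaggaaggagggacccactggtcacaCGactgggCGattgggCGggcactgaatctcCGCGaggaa
p19Arf promoter: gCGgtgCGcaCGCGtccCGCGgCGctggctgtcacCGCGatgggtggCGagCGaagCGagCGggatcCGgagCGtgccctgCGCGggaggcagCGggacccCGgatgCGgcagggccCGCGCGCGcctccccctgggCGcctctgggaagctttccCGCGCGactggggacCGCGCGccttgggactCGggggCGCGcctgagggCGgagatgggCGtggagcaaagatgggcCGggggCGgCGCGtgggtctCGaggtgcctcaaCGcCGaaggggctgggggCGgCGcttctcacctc

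The p19Arf window held 45 CpG, more than 98.1% of the 32851 promoter windows of the table, and the p16Ink4a window held 12, more than 60.4% of them, against a median of 7. An E2F word (TTTCGCGC, TTTGGCGC, TTTCCCGC or TTTGCCGC, either strand) was found in 2 of the 11 windows and in 2.26% of all windows. One lay in the p19Arf window 99 bases before the RefSeq start and the other in the window of Rbl1, a known E2F target gene, 18 bases before the RefSeq start. The RefSeq start of p19Arf lies within the GENCODE first exon of Cdkn2a-202, not at its first base. Each is shown with its match in capitals, at chr4:89294700-89294729 and chr2:157204534-157204563 on the minus strand.
Cdkn2a, p19Arf: ctctgggaagcTTTCCCGCgcgactgggga
Rbl1: aagaaggcgatTTTCGCGCgctttgtcgcg
The GC box GGGCGG, the word bound by Sp1, was in 9 of the 11 windows and in 35.7% of all windows. Such matches describe these letters only and say nothing of binding.

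Rb1, the founding pocket protein gene (chr14:73183673-73325822), had 37.0, 53.5 and 45.0 TPM (45.1 ± 8.24, n = 3). Rbl1, which encodes p107 (chr2:157145893-157204534), had 14.5, 21.3 and 18.6 TPM (18.1 ± 3.45). Both were lowest in line 66 and highest in line 67, 1.45-fold and 1.47-fold apart, and the ratio of Rb1 to Rbl1 was 2.56, 2.51 and 2.42. With Rbl2, which encodes p130 (10.7, 11.2 and 12.0 TPM), the family summed to 62.1, 86.0 and 75.6 TPM, of which Rb1 held 59.6%, 62.2% and 59.5%. Rb1-201 carried 94.6% of Rb1, whereas Rbl1-201, the protein-coding transcript of Rbl1, carried 63.7%, and a retained-intron transcript, Rbl1-202, had 4.83, 7.69 and 6.32 TPM.

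Set side by side, the 5 inhibitor genes summed to 593, 634 and 723 TPM (650 ± 66.5, n = 3), below the D cyclins in each line. That sum takes Cdkn2a whole, so it includes the p19Arf transcript (71.3, 69.7 and 70.4 TPM), which encodes no CDK inhibitor. The sums and ratios given here are therefore higher than those of CDK inhibitors alone. The ratio of inhibitors to D cyclins was 0.564, 0.701 and 0.632, or −0.83, −0.51 and −0.66 on the log2 scale (−0.67 ± 0.16). In CPM the mean was −1.65 on the log2 scale. Cdkn1a made up 61.4%, 71.2% and 68.7% of that sum and Cdkn2a, with p19Arf counted in, 29.5%, 19.7% and 22.2%. These are ratios of mRNA and not of protein.

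In the order of mean level, 7 of 9 pairs of neighbours kept the same order in all 3 lines. The exceptions were Ccnd1 over Cdkn1a (log2 ratio 0.10 ± 0.34, higher in 1 of 3 lines) and Cdkn1b over Rbl1 (0.05 ± 0.23, higher in 2 of 3 lines). The ranges of Ccnd3 and Ccnd2 (0.28 ± 0.29) and of Rbl1 and Cdkn2c (0.32 ± 0.22) overlapped between lines as well. The widest step was that from Cdkn2a to Rb1 (1.77 ± 0.51), which turned to −0.32 ± 0.51 in CPM. In CPM, 4 of the 9 pairs turned in mean order, the others being Ccnd3 over Ccnd2, Cdkn2b over Cdkn1b and Cdkn1b over Rbl1. An exact two-sided sign-flip test over 3 lines cannot give a p below 0.25, so no neighbours could pass 0.05.

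None of the 10 genes was over 2-fold apart between any pair of lines, against 2.47% of the 8428 genes, and 2 (Ccnd2 and Cdkn2c) were over 1.5-fold apart, against 9.79% of all. The median distance between the highest and lowest line was 1.38-fold for the 10 genes and 1.18-fold for all 8428, and the median coefficient of variation was 16.1% and 8.74%. Even Ccnd1, the steadiest of them, had a larger distance than 63.8% of all genes. Counting error at the lowest count of a gene was between 0.381% and 3.62%, below the spread between lines (10.7% to 29.6%) for each of the 10 genes. No gene was named for a likeness to one of them, since the rule for that needed a 2-fold difference.

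**Figure D3:**
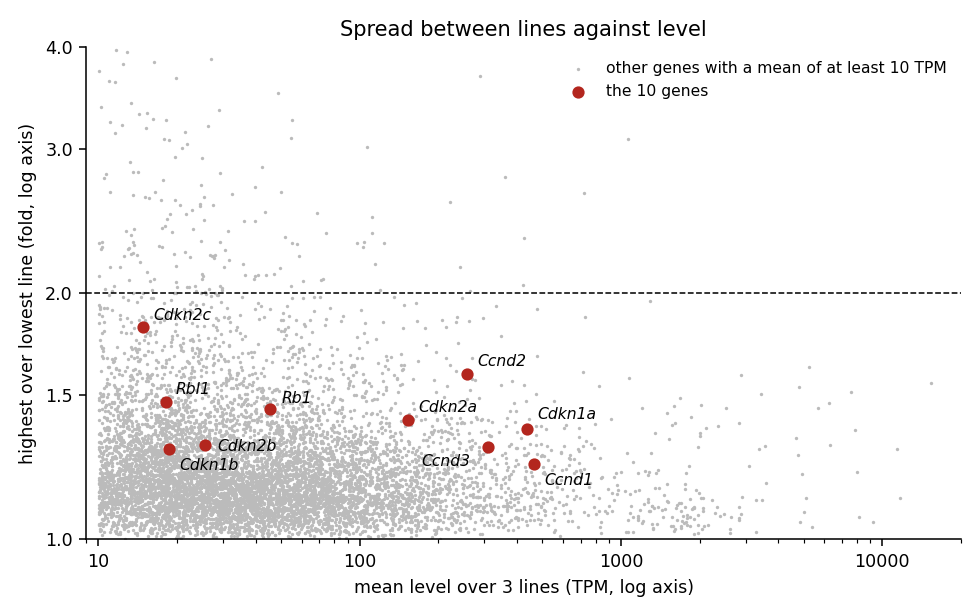
Each point is a gene whose mean reached 10 TPM, with its mean level (log axis) against the fold between its highest and lowest line (log axis, up to 4-fold, which leaves out 41 genes). The 10 genes, in red, lie between 1.24-fold and 1.82-fold, below the dashed line at 2-fold.

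Line 66 was lowest for 6 of the 10 genes, line 67 for 4 and line 72 for none, against 47.7%, 32.7% and 19.6% of all 8428 genes. Line 72 was highest for 5, line 67 for 3 and line 66 for 2, against 45.7%, 26.2% and 28.1%. The 4 genes lowest in line 67 were Ccnd1, Ccnd2, Cdkn2a and Cdkn2b, and the 6 lowest in line 66 were Ccnd3, Cdkn1a, Cdkn1b, Cdkn2c, Rb1 and Rbl1.

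Markers of cell state moved between the same lines. All 5 proliferation markers examined were lowest in line 66 and highest in line 67, as was Mki67 (35.6, 64.1 and 54.3 TPM), and their sum was 387, 527 and 493 TPM. Of 8 genes of differentiated muscle, 7 reached a mean of 10 TPM, and all 7 were lowest in line 66 and 6 of them highest in line 72. That list summed to 1035, 1542 and 1831 TPM, with Myog, the factor that opens differentiation, at 168, 222 and 310 TPM. Rb1, Rbl1 and Cdkn2c followed the order of the proliferation markers, and Cdkn1a, Cdkn1b and Ccnd3 that of the muscle genes. The fibroblast markers Col3a1 (145, 205 and 270 TPM) and Col1a2 (7.47, 28.3 and 37.0 TPM, 4.95-fold apart) had the same order of lines as the muscle genes. So did the sum of that list, carried by Col3a1, Col1a2 and Prrx1, while Prrx1 itself had 86.9, 77.7 and 133 TPM. Pdgfra, Col1a1 and Dcn, all with means below 1 TPM, were instead highest in line 66 (0.454, 0.311 and 0.0580 TPM). With 3 lines, what part any of these lists had in these levels was not tested.

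The genes around Cdkn2a were examined within 500 kb of it, where 30 other genes were annotated. Of these, 14 were at or below 3 counts in every line, several of them interferon genes, and 8 reached 1 TPM in at least 1 line. After the values had been seen, those 8 were counted by their lowest line. Line 67 was lowest for 7 of them, among them Cdkn2b, itself one of the 10 genes, against 35.1% of the 12986 genes that reached 1 TPM, and the exception was Gm12610 (0.991, 1.55 and 1.72 TPM).

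Mtap, which encodes an enzyme of methionine salvage, had 120, 109 and 122 TPM. Wincr1, a long noncoding RNA, had 37.6, 15.3 and 23.2 TPM, 2.46-fold apart. Gm12602 had 30.7, 19.1 and 24.2 TPM, and AL805899.1 had 32.3, 21.4 and 23.3 TPM. AL805899.2 had 3.34, 2.71 and 3.03 TPM, and Gm12609 had 0.686, 0.411 and 1.07 TPM on at most 19 estimated counts. Chromosome 4 as a whole stood 0.04 (log2) higher in line 67 than in the other lines, relative to all genes, against −0.41 for Cdkn2a and −0.36 for Cdkn2b. Neighbouring genes are not independent of each other, and why line 67 was lowest was not tested.

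**Figure D4:**
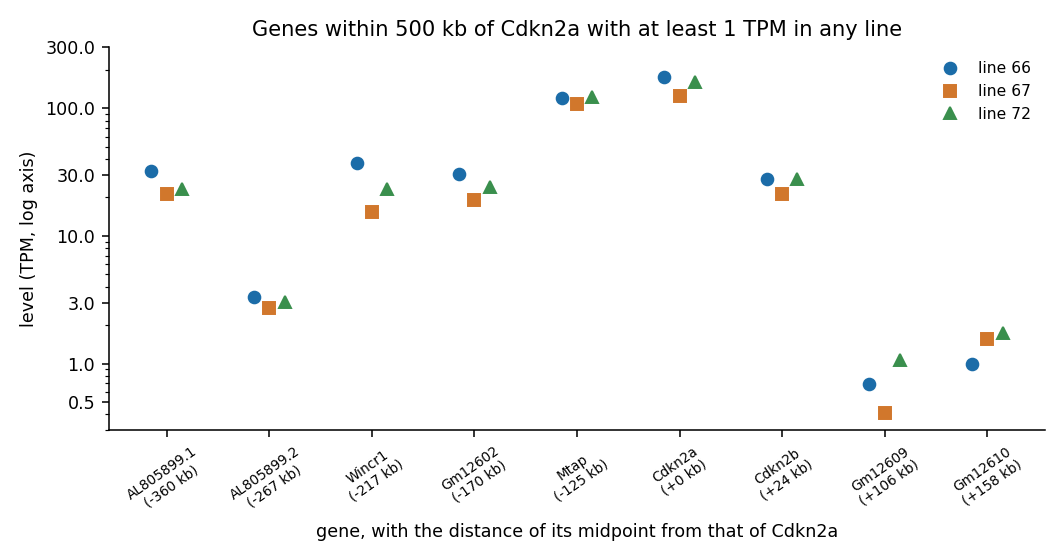
Levels in TPM (log axis) in lines 66, 67 and 72 of Cdkn2a and the 8 other genes within 500 kb that reached 1 TPM in at least 1 line, ordered by the distance of their midpoints from that of Cdkn2a. Line 67 (squares) is the lowest for Cdkn2a and for 7 of the 8 neighbours.

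Among the 5 regulators of the Cdkn2a locus and its p53 branch that were examined, none was over 2-fold apart among the 4 with a mean of at least 10 TPM. Trp53, which encodes p53, had 211, 145 and 160 TPM, and Mdm2, its E3 ligase and target, had 455, 326 and 401 TPM. Both were lowest in line 67, as were 3 of the 4 regulators with a mean of at least 10 TPM and 32.7% of all genes. The genes of their chromosomes were set against those of the other lines (median log2 difference, relative to all genes). In lines 66, 67 and 72 this difference was 0.33, −0.20 and −0.14 for chromosome 11 (Trp53) and 0.29, −0.09 and −0.19 for chromosome 10 (Mdm2). The own log2 differences were 0.53, −0.34 and −0.21 for Trp53 and 0.38, −0.37 and −0.02 for Mdm2. Chromosome 10 was thus lowest in line 72 but Mdm2 in line 67, and what part the chromosomes had was not tested. Of the Polycomb genes known to silence the locus, Ezh2 had 110, 109 and 139 TPM, the lowest value again in line 67 but close to that of line 66. Bmi1 had 106 ± 9.84 TPM (n = 3), and Cbx7 was low (4.12 ± 0.910 TPM).

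Beyond these 10 genes, 40 genes of the same pathway were examined, of which 35 had a mean of at least 10 TPM, 1 was over 2-fold apart and 4 over 1.5-fold, with a median distance of 1.27-fold. Over all 8428 genes the shares were 2.47% and 9.79% and the median 1.18-fold. Of the kinases that partner the D cyclins, Cdk4 had 972, 843 and 856 TPM and Cdk6 33.0, 43.1 and 31.5 TPM, so Cdk4 made up 96.1% of their summed mRNA level per length on average. By estimated counts the gap was narrower, with 35858, 28579 and 30467 of Cdk4 and 16953, 18874 and 14641 of Cdk6 in lines 66, 67 and 72. Cdk1, the mitotic kinase, had 164 ± 13.6 TPM (n = 3) and Cdk2, the partner of cyclins E and A, 49.4 ± 2.80 TPM. Cdk4, Cdk1 and Cdk2 lie on chromosome 10, whose genes stood 0.29 (median log2 difference, as above) higher in line 66. Their own log2 differences in line 66 were 0.25, −0.15 and 0.20, and what part the chromosome had was not tested. Ccne1 (70.1, 92.8 and 114 TPM) and Ccna2 (96.9, 154 and 154 TPM), cyclins of S-phase entry and S phase, were lowest in line 66. Ccna1, the germ line A cyclin, had a mean of 0.0978 TPM.

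The gene over 2-fold apart was Cdkn1c, the imprinted Cip/Kip gene that encodes p57, with 5.73, 17.0 and 48.0 TPM, 8.37-fold between lines 66 and 72. Line 72 was the highest for Cdkn1a, Cdkn1b and Cdkn1c, at folds of 1.36, 1.29 and 8.37 over line 66, as it was for 45.7% of all 8428 genes. Cdkn2d, the remaining INK4 gene, had 6.62, 11.5 and 11.8 TPM, lowest in line 66 as was Cdkn2c.

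Of 10 E2F and DP genes, 9 had a mean of at least 10 TPM and none of these was over 2-fold apart. Per length, the most abundant E2F was E2f4 (59.3 ± 3.17 TPM, n = 3), which acts mainly with RBL1 and RBL2 as a repressor. E2f8 (40.1 TPM) and E2f6 (39.4 TPM) came next, ahead of the activators E2f2 (24.6 TPM), E2f3 (23.2 TPM) and E2f1 (18.8 TPM). By estimated counts, E2f8 (6344 and 6737) stood above E2f4 (5285 and 4981) in lines 66 and 67. In line 72, E2f3 (6024) stood above E2f4 (5609). Tfdp1, the dimer partner of E2f4 and the activators, had 178 ± 21.9 TPM. All 10 E2F target genes examined had a mean of at least 10 TPM, and 9 of them were lowest in line 66, against 47.7% of all genes. They summed to 1016, 1480 and 1363 TPM, with Rrm2, a subunit of ribonucleotide reductase, at 321, 614 and 494 TPM and Pcna, the polymerase clamp, at 281, 366 and 380 TPM. Of the genes that turn over inhibitors, Skp2, which marks p27 for breakdown, had 23.3, 30.5 and 33.8 TPM, and its cofactor Cks1b had 220 ± 7.43 TPM.

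**Figure D5:**
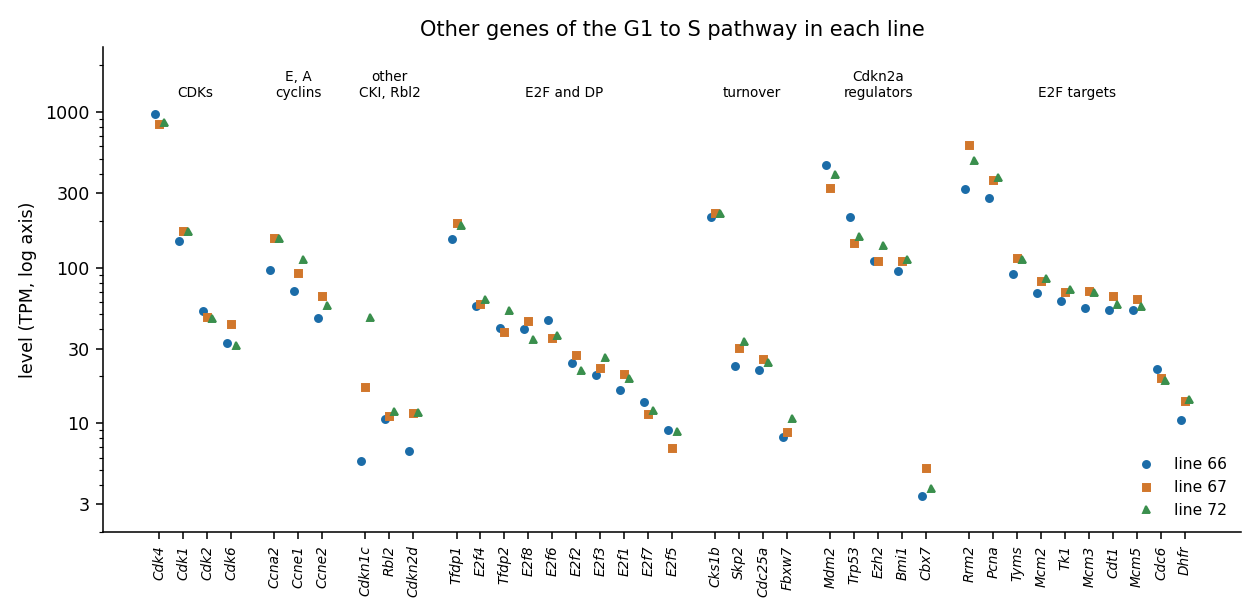
Levels in TPM (log axis) of 39 other genes of the pathway in lines 66, 67 and 72, by role, without Ccna1, whose mean is 0.0978 TPM. Cdkn1c has the widest range (5.73 to 48.0 TPM), and most E2F target genes are lowest in line 66 (circles).

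Some of these genes share sequence with other genes, which can limit their levels. All 31-base words of Cdkn2a, Cdkn2b and Cdkn2c occurred in no other gene, and the estimated counts of these genes, of Cdkn1b and of Rb1 were whole numbers in all 3 lines (within 0.01). For Ccnd1 22.3% of words occurred in LTO1, a gene on the opposite strand with 13.3, 12.2 and 13.9 TPM. For Rb1 7.23% occurred in Rcbtb2 and 5.93% in Lpar6, also on the opposite strand, with 74.7, 67.2 and 77.1 TPM and 7.38, 6.74 and 8.56 TPM. The whole counts of Rb1 show no fractional split of reads with these genes. The libraries were stranded, but the strand setting of the quantification is not given in the sources used here.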

How the data were processed

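Per the labels, poly-A-enriched RNA (RIN above 8) was made into stranded libraries, and the submitters' processing notes name bcl2fastq 2.20, fastp 0.20, kallisto 0.46.1 and GRCm39. The annotation release, strand and bias settings are not given in the sources used here. For each transcript, the authors deposited an estimated count, not normalized, and a TPM value. Of 121798 transcripts, 120686 (99.1%) were matched by identifier to GENCODE M21 (GRCm38), and 1112 (0.493% to 0.535% of counts) were left out. Matching was by identifier, since the builds differ. TPM values and estimated counts were summed per gene, with estimated counts rounded for binomial intervals. Distances between lines were taken over genes whose mean reached 10 TPM and carry no p-value. Log2 levels are log2(TPM + 1), and the order test was an exact sign-flip test over lines. All 10 genes were named, other genes came from fixed lists, and genes near Cdkn2a were named from 1 TPM. The genes and lists were chosen with earlier results of these data known. Alternatives were CPM, a pseudocount of 0.1, other filters and scalings, protein-coding transcripts and leaving out each line. On simulated counts of 12219 genes, 200 were set 4-fold apart in a single line. The 2-fold rule found 100% of those set apart and 0 of the rest. Folds closer to 2 were not tested there, nor was the reliability of the rule in these lines. Alternative scalings used edgeR 4.0.16 (TMM) and DESeq2 1.42.0 (size factors) under R 4.3.3; the rest ran in Python 3.11.15 (scipy 1.17.1, pandas 2.3.3, numpy 2.4.6, with matplotlib 3.10.9 for plots).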

Additional observations from a re-analysis of the deposited data

How the results depend on the processing

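No gene among the 10 was over 2-fold apart under any filter or scaling tried or without any line, and 2 were at a threshold of 1.5. Over all genes, the count of 208 over 2-fold became 901 with a filter at a mean of 1 TPM, 5501 with no filter, 825 at a threshold of 1.5, and between 92 and 124 without 1 line (92 without line 66, 124 without line 67, 115 without line 72), which compares fewer lines. It stayed between 176 and 198 with TMM factors, DESeq2 size factors, ratios relative to the chromosome and protein-coding transcripts only. The log2 ratio of inhibitors to D cyclins of −0.67, with p19Arf counted in, was −1.65 in CPM, which does not divide by length. Without 1 line it was between −0.74 and −0.59. The p19Arf share of 46.8% was 48.8% by counts and between 42.3% and 49.8% without 1 line. The neighbour pairs of one order numbered 7 to 8, ranked anew in each setting. Of the 9 pairs ranked by TPM, 4 turned in CPM, with log2 ratios of −1.14 (Ccnd3 to Ccnd2), −0.32 (Cdkn2a to Rb1), −0.51 (Cdkn2b to Cdkn1b) and −0.32 (Cdkn1b to Rbl1). Of 60 alternative values for the log2 levels, 50 moved by less than the SD between lines, 9 moved by more with CPM, and 1, Rbl1, with protein-coding transcripts only (3.63 against 4.24). The count of genes near Cdkn2a lowest in line 67 was 6 of 7 within 250 kb and 7 of 10 within 1000 kb, windows chosen after seeing the data. No paired analysis was possible because lines 66, 67 and 72 make up 1 condition. With 1 library per line, the spread between lines and that between cultures of a line cannot be told apart.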
